A study of Mus musculus with 4 samples.

Results

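Integrins, laminins and the proteins that tie them to the basement membrane were examined in the left ventricle of infarcted KDM5B-KO and WT mice. The genes were taken by name from the probes of the arrays: the integrin alpha and beta chains, the laminin alpha, beta and gamma chains, and the linkers Nid1, Nid2, Hspg2, Dag1 and Agrn. Of 20051 genes named on the arrays, 41 met this rule, on 88 probes, and the gene Itgad of the same family was not analysed here. By role there were 7 leukocyte integrins, 10 integrins of muscle and vessels, 8 other integrins, 11 laminin chains and 5 linkers. Each gene is given by its brightest probe.

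RNA came from mice labelled male, of 8 to 10 weeks, at day 7 after the left anterior descending coronary artery was tied off. The KO mice carry a CRISPR/Cas9 deletion with a frameshift in the JmjC domain of Kdm5b on C57BL/6, and the WT mice are littermates. Each group had 2 arrays, numbered 2 and 3 in the titles and called WT 2, WT 3, KO 2 and KO 3 here. The KO is not restricted to a cell type and every sample is infarcted, so no cell type and no uninjured heart is set apart. The labels do not say whether an array holds 1 animal or a pool.

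Integrins are paired receptors of an alpha and a beta chain that hold cells to matrix or to other cells, and the pair decides the ligand. The beta chain Itgb2 is carried by leukocytes and is needed for their arrest on vessel walls, while the beta chain Itgb1 pairs with many alpha chains and anchors muscle, vessel and connective tissue cells. Laminins are trimers of an alpha, a beta and a gamma chain that form the basement membrane sheet around each cardiomyocyte and vessel, nidogens, perlecan and agrin join that sheet to other matrix, and dystroglycan binds it at the cell surface.

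A level is the log2 processed signal relative to the 75th percentile of its array, and a difference is KO minus WT in log2 units. Levels of different probes are not on a common scale and were not set against each other. The test took probes that stood well above background on each array of WT, of KO or of both, which left 39 of the 41 genes. Lama1, a laminin chain of early development, was above background on no array, and Itga10, a collagen receptor of cartilage, was above background on WT 3 and KO 3 only. A gene was called at a limma adjusted p under 0.05 over all tested probes together with a fold change over 2.

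The arrays divided in ways that the genotype does not give. Kdm5b itself, at 136485365 to 136485424 of chromosome 1 (mm9), had levels of -0.87 and -1.81 on WT 2 and WT 3, and -2.40 and -2.26 on KO 2 and KO 3. All 4 Xist probes were above background on WT 2 and KO 2 and none on WT 3 and KO 3, and 6 of 7 probes of Y-linked genes showed the opposite, although all samples are labelled male. Every comparison is therefore also given within the array number, with 1 array of each genotype and so no replicate. KO 2 stood apart in cell type markers, and KO 3 lay apart in the opposite direction in those of cardiomyocytes. The mean level of 10 cardiomyocyte markers was 6.63 and 5.59 on WT 2 and WT 3, and 7.61 and 4.78 on KO 2 and KO 3. On the same arrays 6 neutrophil markers averaged -0.53, -0.36, -3.02 and -0.44. Of the latter, Cxcr2 and Ltf were not above background on KO 2, so the mean there rests partly on background readings. In RNA of whole tissue, fewer cells of a type and less RNA per cell cannot be told apart.

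By limma, 0 of 39 genes passed the threshold, as did 0 of all 28305 tested probes (0%), and the lowest adjusted p was 0.9999 in both. At an unadjusted limma p under 0.05 there was 1 gene, Itgae, which is 2.56% of the genes tested here against 1.41% of all 15041 tested genes. By size alone, 5 genes were more than 2-fold lower in KO, namely Itgae, Itgal, Itga2, Itgb7 and Itgb8. That is 12.8% of these genes, against 2.33% of all tested genes. Itga2 was not above background on KO 2, and over genes above background on all 4 arrays the count was 4 of 37, or 10.8% against 1.36%. More than 2-fold higher were 0 of them, against 1.13% of all tested genes. The median difference was -0.14 over the 39 genes and 0.04 over all tested genes. With 2 arrays a group, an exact two-sided permutation test cannot give a p under 0.333. The p-values of limma measure only the spread between the arrays of a group, which also differ in Xist and Y-linked genes. How much of that spread is technical was not tested.

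The array numbers were then taken apart. Between KO 2 and WT 2, 12 of the 39 genes were more than 2-fold lower, or 30.8% against 9.37% of all tested genes, and 1 was more than 2-fold higher, or 2.56% against 6.94%. These 12 were all 7 leukocyte integrins, Itgb3, Itgb5, Itga2, Itga11 and Itgb8. Over genes above background on both arrays, which leaves out Itga2, 11 of 37 were more than 2-fold lower, or 29.7% against 7.79%. Between KO 3 and WT 3, 0 genes were more than 2-fold lower and 0 were more than 2-fold higher, against 1.76% and 2.57% of all tested genes. Whether the difference at number 2 departs from that at number 3 cannot be tested with 1 array in each place.

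**Figure D1:**
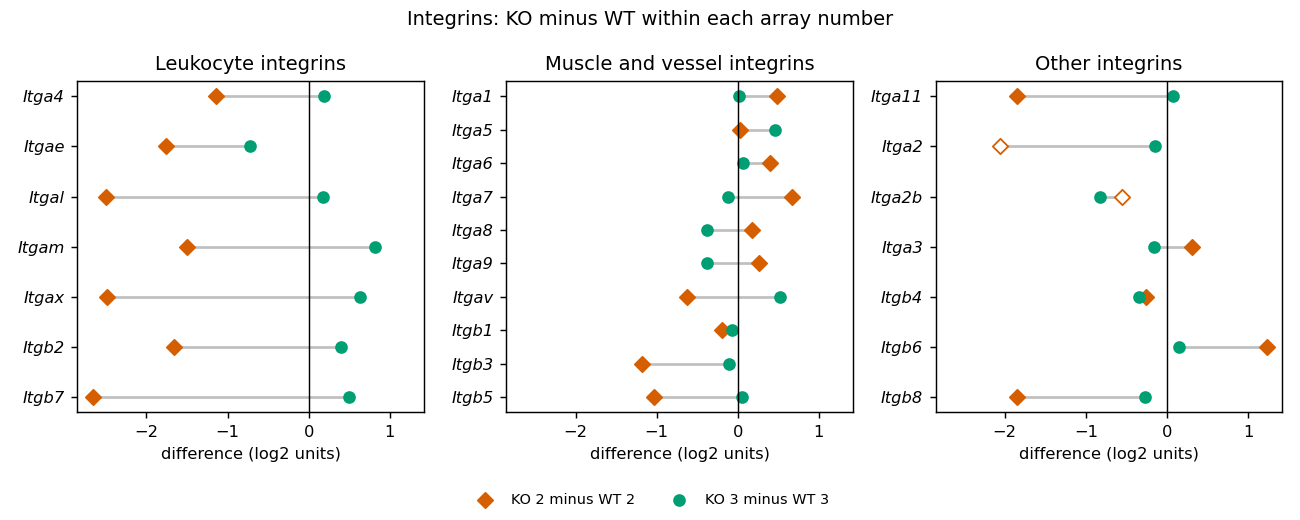
Difference of each tested integrin between the KO and the WT array of one number, in log2 units, with diamonds for number 2 and circles for number 3, and 1 array per genotype behind each point. All 7 leukocyte integrins lie left of zero at number 2, from -2.66 to -1.14, and 6 of 7 lie right of it at number 3. Open diamonds mark Itga2 and Itga2b, which were not above background on KO 2.

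The leukocyte integrins were examined first. These receptors let blood cells stop at a vessel wall, cross it and bind complement, fibrinogen or epithelium. All 7 had a lower mean in KO than in WT, with a median difference of -0.92. All 7 were lower on KO 2 than on WT 2, with a median of -1.76, and 6 of 7 were higher on KO 3 than on WT 3, with a median of 0.40. The mean level of the list was 0.21 and 0.02 on WT 2 and WT 3, and -1.75 and 0.31 on KO 2 and KO 3. The KO array of number 3 thus lay above both WT arrays and the KO array of number 2 below them. Without KO 2 the median difference was 0.48.

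Itgb2, the beta chain that Itgal, Itgam and Itgax share, was measured at 77027978 to 77028037 of chromosome 10 (mm9). Its level was 1.47 and 1.64 on WT 2 and WT 3, and -0.19 and 2.04 on KO 2 and KO 3. KO 2 was the lowest array and KO 3 the highest, so the groups overlapped. KO differed from WT by -0.63 with a standard error of 0.84, made up of -1.66 at number 2 and 0.40 at number 3. Leaving out KO 2 gave 0.48.

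KO 2 was also the lowest array for the alpha chains that pair with Itgb2. Itgal, the alpha chain of the lymphocyte receptor for ICAMs, had levels of -0.71, -1.29, -3.20 and -1.11 on WT 2, WT 3, KO 2 and KO 3, a difference of -1.16 with a standard error of 0.82. Itgam, the alpha chain of the complement receptor of neutrophils and macrophages, had levels of 0.07, -0.27, -1.43 and 0.55 on these arrays, a difference of -0.34 with a standard error of 0.76. Itgax, an alpha chain abundant on dendritic cells and some macrophages, had levels of 0.96, 0.76, -1.53 and 1.39, a difference of -0.92 with a standard error of 1.09. In each of these genes KO 2 was the lowest array by more than the whole distance between the WT arrays. KO 3 was above both WT arrays for Itgam and Itgax and between them for Itgal. Without KO 2 the differences of Itgam and Itgax turned to 0.65 and 0.54, and that of Itgal shrank to -0.11.

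Itgb7 is the second beta chain restricted to leukocytes and pairs with Itga4 on lymphocytes homing to gut and with Itgae on cells held in epithelium. Its probe, at 102046450 to 102046509 of chromosome 15 (mm9), read 0.80 and 0.26 on WT 2 and WT 3, and -1.85 and 0.76 on KO 2 and KO 3. The difference between KO 2 and WT 2, -2.66, was the lowest of any of the 39 genes within a number, and KO 3 lay 0.50 above WT 3. Itga4, the alpha chain of the receptor for VCAM-1, which other cell types also carry, had levels of 0.43, 1.20, -0.71 and 1.40 on WT 2, WT 3, KO 2 and KO 3. Its difference of -0.47 had a standard error of 0.85, and it turned to 0.58 without KO 2, as that of Itgb7 turned to 0.22.

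Itgae, the alpha chain of the receptor for E-cadherin on T cells and dendritic cells of tissues, was the exception in this group. Its brightest probe, spanning 72959105 to 72960563 of chromosome 11 (mm9), read -1.57 and -2.17 on WT 2 and WT 3, and -3.32 and -2.89 on KO 2 and KO 3. The KO arrays were the lowest of the 4, and the KO array was lower at both numbers, with differences of -1.76 at number 2 and -0.72 at number 3. The WT arrays averaged -1.87 ± 0.43 (SD, n = 2) and the KO arrays -3.11 ± 0.31 (SD, n = 2). The difference of -1.24, a fold of 2.36, had a standard error of 0.34, an unadjusted limma p of 0.0238 and an adjusted limma p of 0.9999. Leaving out 1 array at a time gave -1.54 to -0.94. The other tested Itgae probe was above background on the WT arrays only, and no difference is given for it.

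**Figure D2:**
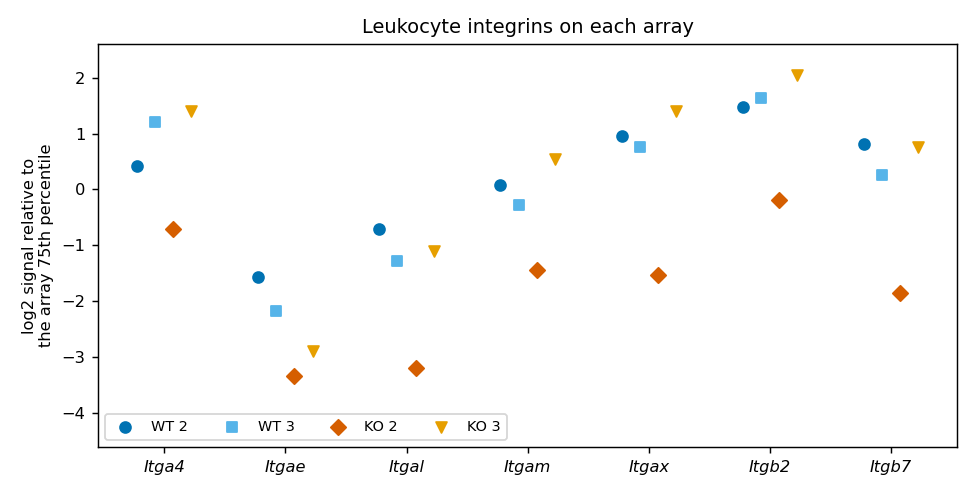
Level of each leukocyte integrin on each of the 4 arrays, as log2 signal over each array's own 75th percentile, with 1 point per array. KO 2 is the lowest array for all 7 genes, while KO 3 lies below both WT arrays for Itgae only, at -2.89 against -1.57 and -2.17.

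The upstream sequences of these genes were searched for GAGGAAG, a purine-rich motif of the kind bound by the myeloid factor PU.1, on both strands. Promoters of RefSeq (GRCm38.p6), from 250 bases before to 50 after the start of the gene, were given for 27 of the 41 genes. Of these genes, 9 held the motif in at least 1 promoter, and Agrn, Dag1, Itga3, Itgb6 and Lamb3 had more than 1 promoter. Of all 32851 promoters, 13.6% held it, a share by promoter that is not on a par with counts by gene. By gene, the motif was present in 2 of 4 leukocyte integrins, Itgam and Itgb7, and in 1 of 7 muscle and vessel integrins, Itgav. The other groups held it in 3 of 7 genes of other integrins, 2 of 5 laminin genes and 1 of 4 linker genes. The counts are a description of these letters and not of bound sites. The promoters of both leukocyte genes are printed with that of Itgb1, which has no match, so that the windows can be set side by side. They lie at chr7:128062390-128062689 on the plus strand for Itgam, chr15:102231886-102232185 on the minus strand for Itgb7 and chr8:128685404-128685703 on the plus strand for Itgb1, and capitals mark the motif or its reverse complement.
Itgam: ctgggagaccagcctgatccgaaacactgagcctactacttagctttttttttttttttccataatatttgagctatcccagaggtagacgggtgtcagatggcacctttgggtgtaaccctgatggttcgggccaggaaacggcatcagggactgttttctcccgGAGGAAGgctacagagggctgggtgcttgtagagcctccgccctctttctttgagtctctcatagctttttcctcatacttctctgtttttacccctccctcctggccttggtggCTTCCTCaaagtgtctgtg
Itgb7: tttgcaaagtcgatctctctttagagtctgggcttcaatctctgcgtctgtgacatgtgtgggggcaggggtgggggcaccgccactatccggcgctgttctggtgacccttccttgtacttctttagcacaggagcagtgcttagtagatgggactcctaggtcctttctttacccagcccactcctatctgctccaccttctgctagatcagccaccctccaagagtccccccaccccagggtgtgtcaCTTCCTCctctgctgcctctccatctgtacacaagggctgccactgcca
Itgb1: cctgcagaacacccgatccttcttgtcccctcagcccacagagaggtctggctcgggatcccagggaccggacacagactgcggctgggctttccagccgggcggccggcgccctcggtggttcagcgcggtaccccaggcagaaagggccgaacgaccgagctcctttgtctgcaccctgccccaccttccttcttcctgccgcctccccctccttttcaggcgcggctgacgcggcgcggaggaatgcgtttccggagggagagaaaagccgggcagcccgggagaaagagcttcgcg

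The integrins of muscle and vessels were compared next, since they hold the resident cells of the ventricle in place. Their median difference was -0.06, with 4 of 10 genes higher and 6 lower in KO. It was 0.10 at number 2 and -0.02 at number 3. The mean level of the list was 1.51 and 1.93 on WT 2 and WT 3, and 1.40 and 1.93 on KO 2 and KO 3, so the arrays of number 3 were the higher ones in both genotypes. For 6 of the 10 genes the KO array was within 0.5 log2 units of the WT array at both numbers. The same held for 8145 of all 15041 tested genes, a similar share. Set against the leukocyte integrins, the difference between the medians of the lists, leukocyte minus muscle and vessel, was -0.87 over the 4 arrays, -1.86 at number 2 and 0.42 at number 3. The contrast of the lists between the genotypes rested on KO 2, without which it was 0.26.

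Itgb1, the beta chain that most of these receptors share, was measured at 131256492 to 131256551 of chromosome 8 (mm9). It had levels of 2.25, 2.78, 2.05 and 2.71 on WT 2, WT 3, KO 2 and KO 3, and the KO array differed from the WT array by -0.19 at number 2 and -0.07 at number 3. Its difference of -0.13 had a standard error of 0.37, and 2 dimmer Itgb1 probes differed by 0.39 and 0.15 in the other direction. Itga7, the main laminin-binding alpha chain of cardiac and skeletal muscle, had levels of 1.02, 0.90, 1.69 and 0.78, highest on KO 2 and lowest on KO 3. Its difference was 0.67 at number 2 and -0.12 at number 3, the order of arrays that the cardiomyocyte markers had, and the part of cardiomyocyte content in it was not tested.

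Laminin and collagen receptors of vessels followed. Itga6, a laminin receptor of endothelium, had levels of 2.71 and 2.86 on WT 2 and WT 3, and 3.11 and 2.92 on KO 2 and KO 3. Itga1, which binds collagen IV and laminin, had levels of 0.45, 0.90, 0.94 and 0.91 on the same arrays. For both genes the KO arrays lay above both WT arrays, but KO 3 exceeded WT 3 by only 0.06 for Itga6 and 0.02 for Itga1. The differences of the group means were 0.23 with a standard error of 0.22 for Itga6 and 0.25 with a standard error of 0.26 for Itga1, and that of Itga1 was 0.03 without WT 2. They were among 4 of the 39 genes with this separation, or 10.3%, against 13.3% of all tested genes. Itga9, a receptor for tenascin and for vascular ligands, differed by -0.06, and Itga8, a receptor of smooth muscle and related cells, by -0.10. Itga8 differed more between the WT arrays, at -1.003 and 0.45, than between the groups.

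Of the receptors for fibronectin and vitronectin, Itga5, the classical fibronectin receptor chain, had levels of 0.08, 0.31, 0.11 and 0.77 on WT 2, WT 3, KO 2 and KO 3, a difference of 0.25 with a standard error of 0.32. Itgav, the alpha chain whose pairs can release active TGF-beta from its latent form, had levels of -0.19, 0.18, -0.82 and 0.70. KO 2 was the lowest and KO 3 the highest array, as for Itgb2, and the difference of -0.05 was the balance of -0.63 and 0.53. Its beta chains Itgb3 and Itgb5 were more than 2-fold lower on KO 2 than on WT 2. Itgb3, carried by platelets, endothelium and macrophages, had levels of 1.57, 2.02, 0.39 and 1.91, and Itgb5, carried by fibroblasts and many other cells, 5.74, 6.40, 4.70 and 6.46. At number 3 these genes differed by -0.11 and 0.05. A dimmer Itgb3 probe differed by 0.33 in the other direction. Without Itgav, Itgb3 and Itgb5, which leukocytes also carry, the median of the list was 0.23 in place of -0.06.

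The other integrins, of which 7 were tested, act mainly in fibroblasts, epithelium and platelets. Itga11, Itgb4 and Itgb8 were lower in KO, and Itga3 and Itgb6 were higher. Itga2 and Itga2b were not above background on KO 2, so their differences over the groups were not measured and no median is given for the list. Itgb8, an Itgav partner that activates TGF-beta, had levels of -0.24 and -0.41 on WT 2 and WT 3, and -2.08 and -0.68 on KO 2 and KO 3. The KO arrays were again the lowest, and the difference of -1.06 with a standard error of 0.55 was -1.84 at number 2 and -0.27 at number 3. Without KO 2 it was -0.36. The 3 tested Itgb8 probes were all lower in KO, from -1.06 to -0.07. Itgb4, the hemidesmosome beta chain that pairs with Itga6, had levels of 0.51, 0.63, 0.26 and 0.28, also separated, and its difference of -0.30 with a standard error of 0.21 was alike at the 2 numbers, at -0.26 and -0.35.

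Itga11, a collagen receptor of fibroblasts, had levels of 3.79, 4.81, 1.94 and 4.89 on WT 2, WT 3, KO 2 and KO 3. Its difference was -1.85 at number 2 and 0.08 at number 3. Fibroblast markers were lower on KO 2 too, with a mean level of 5.12 against 5.96, 6.02 and 5.89 on WT 2, WT 3 and KO 3, and their part in the level of Itga11 was not tested. Itga2, a collagen receptor of platelets and epithelium, had levels of -5.05, -4.54, -7.10 and -4.70 and was above background on 3 arrays, all but KO 2. Its difference over the groups was therefore not measured, and at number 3 it was -0.15. Itga2b, the platelet fibrinogen receptor chain, was also not above background on KO 2, and differed by -0.82 at number 3. Itga3, a laminin receptor of epithelium, differed by 0.08.

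Itgb6, an epithelial beta chain, divided the arrays by number. Its level was -1.20 and 0.03 on WT 2 and KO 2 but -3.55 and -3.40 on WT 3 and KO 3. The difference between the genotypes was 0.69 with a standard error of 1.53. Its other tested probe differed by 0.67.

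The laminin chains were then compared as the main scaffold of the basement membrane. Of 10 tested chains, 7 were lower and 3 higher in KO, with a median difference of -0.13. The median was -0.07 at number 2 and -0.25 at number 3, and 0 chains passed a 2-fold difference in either direction at either number. Lama2, Lamb2 and Lamc1 had both KO arrays below both WT arrays, and Lamc3 had both above. Itgae, Itgb4, Itgb8 and Agrn were also separated downwards, and such genes numbered 8 of the 39, or 20.5%, against 8.9% of all tested genes.

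**Figure D3:**
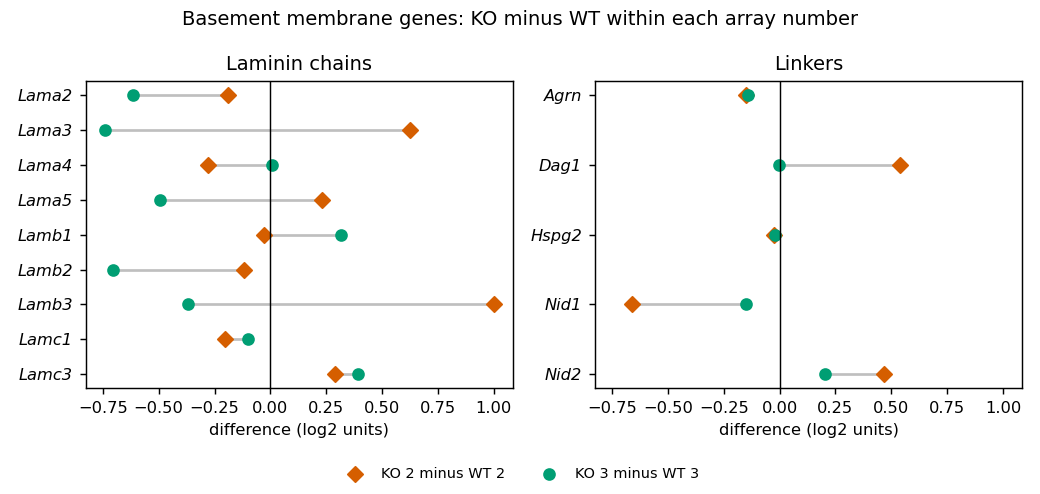
Difference of 9 tested laminin chains and 5 linkers between the KO and the WT array of one number, in log2 units, with diamonds for number 2 and circles for number 3, and 1 array per genotype behind each point. Lama2 and Lamb2 lie left of zero at both numbers and further left at number 3, at -0.62 and -0.70, while Hspg2 lies within 0.03 of zero at both.

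Lama2 and Lamb2, the alpha and beta chains of laminins of mature muscle and its junctions, were lower in KO by about the same amount. Lama2, at 26704229 to 26704288 of chromosome 10 (mm9), had levels of 1.92 and 2.13 on WT 2 and WT 3, and 1.73 and 1.51 on KO 2 and KO 3. It differed by -0.40 with a standard error of 0.23, and a second Lama2 probe differed by -0.41. Lamb2, at 108392189 to 108392248 of chromosome 9 (mm9), had levels of 3.23, 3.26, 3.11 and 2.56, a difference of -0.41 with a standard error of 0.28. In both genes the KO array was further below the WT array at number 3, with differences of -0.62 and -0.70, than at number 2, with -0.19 and -0.12. Neither difference passed the test, and with any array left out they ran from -0.51 to -0.29 for Lama2 and from -0.69 without KO 2 to -0.14 without KO 3 for Lamb2.

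The chains of vessel and general basement membranes were nearer to level. Lamc1, the gamma chain of most laminins, had levels of 5.39, 5.47, 5.18 and 5.37 on WT 2, WT 3, KO 2 and KO 3, a difference of -0.15 with a standard error of 0.22. Lama4, the alpha chain of endothelial laminin, had levels of 3.46, 3.35, 3.18 and 3.35, a difference of -0.14 with a standard error of 0.22. Lamb1, the other common beta chain, differed by 0.14, and Lama5, a vascular and epithelial alpha chain, by -0.13. Lama5 was higher on the KO array at number 2, by 0.23, and lower at number 3, where the difference was -0.50.

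Lama3 and Lamb3 are chains of the laminin of epithelial anchoring. Lamb3 divided the arrays by number, as Itgb6 did, with -2.23 and -1.23 on WT 2 and KO 2 but -3.58 and -3.95 on WT 3 and KO 3. Lama3 was higher on the KO array at number 2, by 0.63, and lower at number 3, where the difference was -0.74. Lamc3, a gamma chain of low signal here, had levels of -4.90, -5.11, -4.61 and -4.72 on WT 2, WT 3, KO 2 and KO 3, and was higher in KO by 0.34 with a standard error of 0.22.

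The linkers had a median difference of -0.02, with 2 genes higher and 3 lower in KO. Their mean level was 3.92 and 4.06 on WT 2 and WT 3, and 3.95 and 4.04 on KO 2 and KO 3. Hspg2, which encodes perlecan, had levels of 4.92, 5.19, 4.89 and 5.17 and differed by -0.02 with a standard error of 0.25. Agrn, which encodes agrin, had levels of 4.98, 5.04, 4.83 and 4.89, separated with a difference of -0.15, but its dimmer probe differed by 0.18. Dag1, the receptor that links laminin to dystrophin, had levels of 3.57, 3.41, 4.10 and 3.40, highest on KO 2, and differed by 0.27 with a standard error of 0.33.

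The nidogens, which bridge laminin and collagen IV, differed in opposite directions. Nid1 had levels of 5.17 and 5.49 on WT 2 and WT 3, and 4.51 and 5.34 on KO 2 and KO 3, and Nid2 had levels of 0.97, 1.19, 1.44 and 1.40 on the same arrays. Nid1 differed by -0.40 with a standard error of 0.38, and by 0.01 without KO 2. Nid2 was higher by 0.33 with a standard error of 0.22, with both KO arrays above both WT arrays. Neither passed the test.

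The partners of these receptors were taken from lists of cytoplasmic adaptors, of the dystrophin complex that holds Dag1, and of the cell surface ligands of leukocyte integrins. Of 21 tested adaptors, 0 were called and the median difference was 0.00. At number 2 the KO array was more than 2-fold lower for 3 of the 21, Fermt3, Parvg and Actn1, against 9.37% of all tested genes. It was more than 2-fold higher for 1 of the 21, Itgb1bp2, against 6.94%. Fermt3, the kindlin of blood cells, had levels of -1.01, -0.28, -2.27 and 0.06 on WT 2, WT 3, KO 2 and KO 3, and Parvg, the parvin of blood cells, -1.49, -1.13, -3.32 and -0.76, both lowest on KO 2 and highest on KO 3 as Itgb2 was. Actn1, an actin crosslinker of many cell types, had levels of 0.79, 1.35, -0.25 and 2.10. Itgb1bp2, the muscle protein melusin that binds the tail of Itgb1, had the reverse order, with 1.80, 0.71, 3.53 and -0.29. The general adaptors Tln1, Vcl and Ilk, which couple integrins to actin, differed by -0.04, 0.01 and 0.03.

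Of 18 genes of the dystrophin complex and the enzymes that glycosylate Dag1, 0 were called, and the median difference was 0.11. It was 0.33 at number 2, with 15 of 18 genes higher on the KO array, and -0.17 at number 3, with 2 of 18 higher. The muscle sarcoglycan Sgca, for example, had levels of 2.24 and 0.89 on WT 2 and WT 3, and 3.38 and 0.02 on KO 2 and KO 3. All 10 cardiomyocyte markers were likewise higher on the KO array at number 2 and lower at number 3. Of 7 tested ligands of leukocyte integrins, 0 were called. No median is given for them, as Cdh1 among them was not above background on KO 2. Icam1, the ligand of Itgal and Itgam, had levels of 2.58, 2.67, 2.00 and 2.56 and was separated downwards. Vcam1, the ligand of Itga4, had levels of 3.15, 3.38, 1.74 and 3.32 and was low on KO 2. Other ligands were higher in KO. Jam2, a junction protein of endothelium, had levels of 3.49, 3.34, 3.93 and 3.76, and F11r, a junction protein that binds Itgal, 2.66, 2.605, 2.90 and 2.84, both separated upwards. Icam2, another ligand of Itgal, had levels of 3.72, 3.47, 4.52 and 3.35, highest on KO 2 and lowest on KO 3. Jam3 differed by -0.17 and was separated downwards. Cdh1, the ligand of Itgae, was above background on 3 arrays, all but KO 2, so its difference was not measured there.

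Markers of other cell types were read beside these lists. All 6 tested neutrophil markers were lower on KO 2 than on WT 2, with a median difference of -2.47, against -0.06 at number 3. Of these, Cxcr2 and Ltf were not above background on KO 2, so the size of their differences at number 2 was not measured. For 7 macrophage markers the medians were -0.73 and 0.16, with mean levels of 2.40, 2.95, 1.79 and 3.19 on WT 2, WT 3, KO 2 and KO 3. For 9 lymphocyte markers they were -1.26 and 0.13, with mean levels of -2.59, -2.53, -4.07 and -1.92. The lymphocyte marker Cd8a was likewise not above background on KO 2. No gene of these marker lists was called. KO 2 had the lowest mean of the 4 arrays in each of these lists, as in the leukocyte integrins, and the part of leukocyte content in the integrin levels was not tested. Of 6 tested epithelial and mesothelial markers, 5 were also lower on KO 2 than on WT 2, while Wt1 was higher by 0.40. The medians of these 6 were -2.03 and 0.42. For 8 endothelial markers the medians were 0.53 and -0.21 and for 8 smooth muscle markers -0.07 and 0.33. For 8 fibroblast markers they were -0.86 and 0.00 and for 4 Schwann cell markers 0.00 and -0.11. Of 7 platelet markers, Gp1ba and Gp5 were not above background on WT 2, nor Gp6 on KO 3, so no median is given for them.

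**Figure D4:**
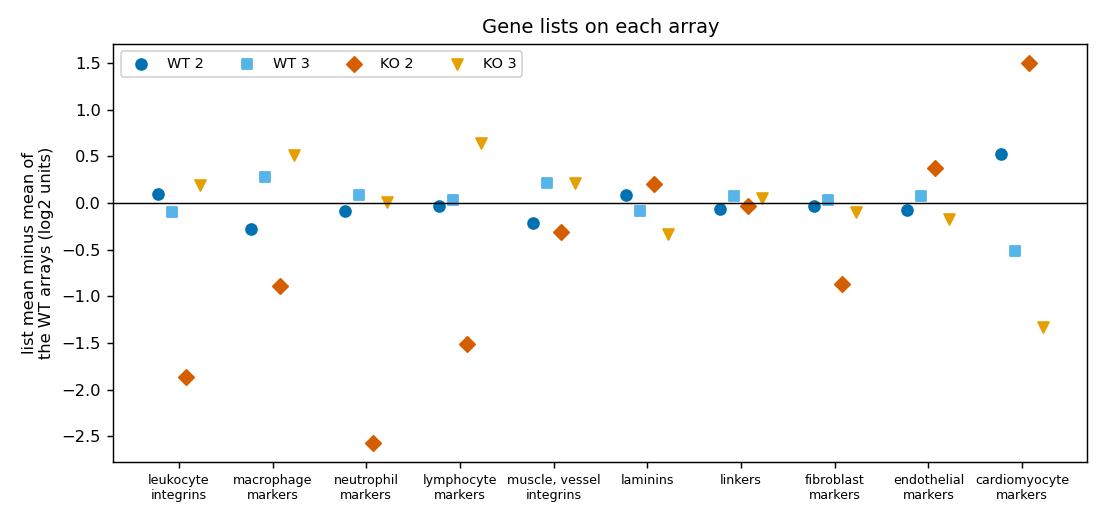
Mean level of each gene list on each array minus the mean of the WT arrays, in log2 units, with 1 point per array. KO 2 lies 1.86 below WT for leukocyte integrins, 2.57 below for neutrophil markers and 1.499 above for cardiomyocyte markers. KO 3 differs from WT by -1.33 for cardiomyocyte markers, while the linkers lie within 0.08 of WT on all 4 arrays. The KO 2 points include markers not above background there, Cxcr2 and Ltf of neutrophils and Cd8a of lymphocytes.

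Several genes were read by more than 1 probe. Of 23 such genes with more than 1 tested probe, 13 had all probes on one side and 10 had probes on both, among them Agrn, Itga1, Itga3, Itga4, Itgav, Itgax, Itgb1, Itgb3 and Lama3. The dimmer probe of Itgax, whose sign put that gene among the 10, was not above background on KO 2, and no difference is given for it. Itga4 was the widest case. Its brightest probe, at 79170690 to 79170749 of chromosome 2 (mm9), differed by -0.47. Dimmer ones above background on all arrays differed by -0.83 and -0.15. A further dim probe was not above background on KO 2, and no difference is given for it. Another dim probe, at 79132945 to 79133004, had levels of -5.06 and -4.91 on WT 2 and WT 3, and -3.86 and -3.55 on KO 2 and KO 3. It was higher by 1.28 with a standard error of 0.24 and an unadjusted limma p of 0.00706, and the KO array was above the WT array at both numbers, by 1.19 and 1.36. This probe and that of Itgae were the only 2 of 77 tested probes of these genes at an unadjusted limma p under 0.05, and its adjusted limma p was 0.9999. Itgal also had probes of unlike size, -1.16 for the brighter and -0.21 for the dimmer. Which exons these probes lie in was not examined, as no annotation of mm9 was used. The first 30 of the 60 bases of the probes that disagree are printed to show that they read separate stretches.
Itga4, brightest probe: aacttcttcaagctgatatgggcgttgaga
Itga4, probe that was higher in KO: aaggaagcccaactattcctaggagccctt
Itgal, brighter probe: ctctctggaatcatacgcccaaataaactt
Itgal, dimmer probe: acttgagagccctggctctgaccagcttca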

How the data were processed

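RNA of left ventricles was measured on 4 one-colour arrays. Per the labels and file headers, the authors scanned the arrays and deposited the intensity values of Agilent Feature Extraction 10.7 on a grid annotated with mm9, background-subtracted and spatially detrended. The authors also deposited log2 values of the same arrays, made with GeneSpring, whose normalization is not given in the sources used here. Of their rows, 99.9% to 99.96% on each array matched the quantile-normalized log2 intensity to within 0.01, with column medians of 6.78.

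Control spots and the 92 to 116 spots per array with an outlier flag were dropped, and repeated spots of a probe were averaged, giving 41174 probes. No spot was saturated, and the share of probes well above background was 68.15% to 72.05%. Log2 values were shifted by the 75th percentile signal of each array, which lay between 607.6 on KO 2 and 976.1 on WT 3. Of the probes, 28305 were tested with limma 3.58.1 (lmFit and eBayes, Benjamini-Hochberg adjustment) in R 4.3.3, 12863 were too dim and 6 lacked a value. The script was tested on simulated data. A gene is its brightest probe by mean log2 intensity. The arrays lay on 1 slide with WT at positions 1 and 2 and KO at 3 and 4, so genotype and slide position cannot be told apart. Precision is limited by the number of arrays.

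The members and lists were chosen with earlier results of these data known. Given in full were genes at an unadjusted p under 0.05, those whose KO arrays lay beyond both WT arrays, the 5 largest differences and 16 genes named by role, and the rest by their values or range. The values of 1 gene are not reported here, though counts and medians include it. Alternatives were normexp (offset 50), quantile and median normalization, no filter, a filter on all 4 arrays, the authors' log2 values, a block for the array number, leaving out each array, robust and trended eBayes, the methods' t-test, the mean of all probes, lists without Itga4 or without Itgav, Itgb3 and Itgb5, and means for medians. Counts over genes above background on the arrays compared were added after the data were seen. Promoter sequences are from RefSeq, GRCm38.p6.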

Additional observations from a re-analysis of the deposited data

Results flagged for a closer look

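Xist, the RNA of the inactive X chromosome, had a level of 4.36 on WT 2 and 3.997 on KO 2 at its brightest probe, on the scale of the report, and was not above background on WT 3 and KO 3. It lies outside the comparisons of the report, and it was singled out because a signal was not called for by the label of male that all 4 samples carry. The integrin Itgb6 and the laminin chain Lamb3 divided the arrays along the same number, and whether this is related was not tested.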

How the results depend on the processing

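The call of 0 genes held under the other scalings, filters and fits and with each array left out, and was not run with the mean of all probes or with changed lists. The methods' t-test without adjustment called 88 of all probes and 0 of these genes. The count of directions kept includes values that could not turn. The filters and the block for the array number cannot move the difference of a probe. The mean of all probes cannot move that of a gene with a single tested probe. With these values included, 219 of 223 values of single genes with all 4 arrays kept their direction. The other 4 were Itga2, not above background on KO 2 and at 0.20 with normexp, Hspg2, at 0.00682 with the median shift, and Agrn and Itgb1, at 0.0180 and 0.14 with the mean of all probes. Normexp moved the median of all probes from 0.02 to 0.13, and no gene was then more than 2-fold lower (0 in place of 5), while the mean of all probes left 3. The muscle and vessel median was 0.23 without Itgav, Itgb3 and Itgb5 and 0.0415 with the mean of all probes, and the linker median was -0.24 both after quantile normalization and in the authors' table.

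With 1 array left out, a lone array was assumed to vary like the others. Genes more than 2-fold higher then numbered 0 to 2 and those lower 3 to 13. Genes with the remaining KO arrays beyond the remaining WT arrays numbered 5 to 13 upwards and 11 to 25 downwards. With fewer arrays any gene meets that separation more easily. The shares over all tested genes were not taken with an array left out, so these counts are not a result about these genes. Medians ran from -1.74 to 0.48 for leukocyte integrins, -0.27 to 0.22 for muscle and vessel integrins, -0.33 to -0.07 for laminins and -0.16 to 0.11 for linkers, and the leukocyte minus muscle and vessel contrast from -1.47 to 0.26. Of 112 values of single genes, 16 turned. Without KO 2 these were Dag1 (-0.0836 to 0.62 over all arrays left out), Itga2 (-2.31 to 0.10), Itga4 (-1.53 to 0.58), Itga7 (-0.19 to 0.73), Itgam (-1.33 to 0.65), Itgax (-2.38 to 0.54), Itgb2 (-1.74 to 0.48), Itgb7 (-2.38 to 0.22), Nid1 (-0.82 to 0.00968), Hspg2 (-0.16 to 0.11), Itgav (-0.81 to 0.71) and Itgb1 (-0.46 to 0.20), the last 3 also without WT 3. Itga5 (-0.0811 to 0.57) turned without KO 3.

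The array numbers are shared by both genotypes, but the sources do not say that they pair samples. Deviations of KO 2 and WT 2 from their group means correlated at 0.57 over 28305 probes. With the number as a replicate block, 0 genes were called, and the block changed no call. The cause of the changes above was not tested.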
